A study of Homo sapiens with 6 samples.

Results

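The endoplasmic reticulum (ER) folds and checks secreted and membrane proteins, and 36 genes of its folding, stress response and degradation machinery were followed in DLD-1 cells after siRNA against AHR. The genes were taken by symbol from a list of ER chaperones, disulfide isomerases, stress sensors and degradation genes, and all 36 were matched to 1 identifier each among the 60483 genes of the count tables. DLD-1 is a human colorectal cancer cell line. The AHR protein is the aryl hydrocarbon receptor, which enters the nucleus and acts on transcription once a ligand is bound. Both groups were DLD-1 cells at passage 16-19, grown in serum-supplemented RPMI-1640 medium. They differed in the siRNA transfected, which was AHR siRNA in 3 libraries and control siRNA in 3 libraries. The sources used here give neither the siRNA sequences nor the time after transfection, and an untransfected group was not analysed here. Separate cultures are not named in the labels, so the p-values rest on library-to-library spread that may be technical only.

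Proteins enter the ER lumen unfolded and are bound by the HSP70 chaperone BiP, encoded by HSPA5, with J proteins that deliver clients and exchange factors that release ADP. Glycoproteins cycle through the lectin chaperones calnexin and calreticulin, and disulfide isomerases, recharged by ERO1 oxidases, form and rearrange disulfide bonds. When unfolded proteins accumulate, the sensors IRE1 (ERN1), PERK (EIF2AK3) and ATF6 start the unfolded protein response, in which ATF6 and spliced XBP1 induce chaperone and degradation genes. Proteins that cannot be folded are recognised, moved to the cytosol and ubiquitinated by ER-associated degradation (ERAD), which is built around SEL1L and the ubiquitin ligase SYVN1. Intestinal cells that secrete mucus rely heavily on this machinery.

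Promoter sequences are shown first because the textbook regulation of these genes runs through short elements close to the start site. RefSeq promoters of GRCh38.p14, from 250 bases before to 50 after each start site, were available for 34 of the 36 genes. Both strands were searched for the ER stress element (ERSE), CCAAT and CCACG separated by 9 bases, for ERSE-II, ATTGG and CCACG separated by 1 base, and for the core of the unfolded protein response element (UPRE), TGACGTGG. ERSE was present in 8 members, which is 23.5% of those with a promoter, against 0.0916% of all 27305 genes with a promoter. ERSE-II was present in 3 members (8.82%, against 0.0696% of all genes), and the UPRE core in 4 members (11.8%, against 0.927%). Only exact matches were counted, so a site that differs in any of these letters was not found. A match is a description of these letters and not evidence of binding. The list was chosen as genes of this response, so the excess over all genes follows from that choice. It is not a result of the siRNA data, and the 27305 genes include many that were not tested here.

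The whole HSPA5 promoter window, at chr9:125241294-125241593 on the minus strand, is printed because this gene is the standard readout of the pathway. The capitals mark CCAAT and CCACG of its only exact ERSE match, which begins 66 bases before the start site.
HSPA5: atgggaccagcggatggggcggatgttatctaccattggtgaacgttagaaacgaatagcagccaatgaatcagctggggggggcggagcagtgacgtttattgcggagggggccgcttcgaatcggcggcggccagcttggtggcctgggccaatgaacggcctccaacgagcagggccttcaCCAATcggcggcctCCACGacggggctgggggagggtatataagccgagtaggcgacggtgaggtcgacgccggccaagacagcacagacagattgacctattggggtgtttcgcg

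The next lines give the ERSE sites of other members with 6 bases on each side, 5′ to 3′ on the strand of the gene, to set genes that fell beside genes that did not. Capitals mark the element's 2 parts, which read CGTGG and ATTGG where the element lies on the opposite strand. PDIA6 lies at chr2:10812847-10812877 on the minus strand, and the HSP90B1 sites at chr12:103930210-103930240 and chr12:103930315-103930345 on the plus strand. CRELD2 lies at chr22:49918548-49918578 and CALR at chr19:12938378-12938408, both on the plus strand. CANX lies at chr5:179698772-179698802 on the plus strand, ERO1B at chr1:236282177-236282207 on the minus strand, and XBP1 at chr22:28800597-28800627 on the minus strand.
PDIA6: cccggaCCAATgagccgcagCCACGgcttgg
HSP90B1, distal: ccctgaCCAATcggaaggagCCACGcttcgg
HSP90B1, proximal: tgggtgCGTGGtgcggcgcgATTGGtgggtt
CRELD2: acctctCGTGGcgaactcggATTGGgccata
CALR: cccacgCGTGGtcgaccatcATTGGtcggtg
CANX: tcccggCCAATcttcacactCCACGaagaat
ERO1B: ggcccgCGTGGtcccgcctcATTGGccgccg
XBP1: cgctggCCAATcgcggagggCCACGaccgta

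ERSE-II sites are given the same way, for HERPUD1 at chr16:56932019-56932041 on the plus strand, SDF2L1 at chr22:21642108-21642130 on the plus strand, and HYOU1 at chr11:119057374-119057396 and chr11:119057268-119057290 on the minus strand. The distal HYOU1 site overlaps a match to the UPRE core, so its letters are counted under both motifs.
HERPUD1: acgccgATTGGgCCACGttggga
SDF2L1: cggaagCGTGGaCCAATcaaaac
HYOU1, distal: ccgtgaCGTGGtCCAATcccagg
HYOU1, proximal: ctgggaCGTGGtCCAATgagtac

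The libraries held 11567736 to 12937058 counts with AHR siRNA and 13585529 to 15037145 counts with control siRNA. Levels are CPM, the counts of a gene scaled to the TMM-adjusted sum of counts on the 14900 tested genes of that library, and changes are log2 fold changes of AHR siRNA over control siRNA from edgeR's quasi-likelihood test. A gene was called at a Benjamini-Hochberg adjusted p under 0.05 over all tested genes. AHR (ENSG00000106546.11, chromosome 7) stood at 95.8, 87.4 and 94.95 CPM with AHR siRNA, against 117, 144 and 132 CPM with control siRNA. The groups did not overlap, and the AHR transcript was at 70.9% of its control level (log2 fold change -0.50, SE 0.08, adjusted p = 1.979e-05, edgeR). All 10 epithelial markers checked had counts, and their summed level was 7148 to 7404 CPM with AHR siRNA and 10740 to 12140 CPM with control siRNA. Most of that sum was KRT8 and KRT18, which were called lower, as were EPCAM, CDH1 and CDX2. VIL1 was called higher, KRT20 and CDH17 were not called, and CDX1 and GPA33 were too low to test. Defining markers of fibroblasts (DCN, LUM), endothelium (KDR) and plasma cells (TNFRSF17) were at 0 in all 6 libraries. Summed levels were 2.13 to 3.31 CPM with AHR siRNA and 2.23 to 3.15 CPM with control siRNA for 6 fibroblast markers, 2.07 to 2.64 against 3.0 to 4.14 CPM for 6 leukocyte markers, and 2.13 to 2.40 against 1.31 to 1.95 CPM for 4 endothelial markers. Within these lists PDGFRB and VWF were called higher and COL1A1 and CD14 lower, each with at most 55 counts in a library. The 5 plasma cell markers summed to 106 to 108 against 113 to 125 CPM, nearly all of it SDC1, which epithelial cells also express. In bulk RNA, fewer cells of a type and less RNA per cell cannot be told apart. Control siRNA replicate 1 differed more from the other control libraries than these did from each other, with a chi-square per degree of freedom of 7.86 and 6.86, against 1.51.

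Several abundant luminal folding genes (HSPA5, HSP90B1, CALR, PDIA4, PDIA6) were lower with AHR siRNA, while HYOU1 was higher and P4HB, CANX and the stress sensors did not pass the test. Of 35 tested members, 18 fell, 6 rose and 11 did not pass the test. The share that fell was 51.4%, against 30.1% of all 14900 tested genes. The share that rose was 17.1%, against 30.0% of all tested genes. Calls in either direction took 68.6% of the members and 60.1% of all tested genes, so change as such was about as common among the members as elsewhere. The median log2 fold change was -0.23 over the tested members and 0.01 over all tested genes. The libraries of the groups did not overlap for 20 members that were lower and 7 that were higher, against 31.7% and 32.0% of all tested genes. No member reached a log2 fold change of 1 in either direction, which 13.3% of all tested genes did, and the members ran from -0.98 for DERL1 to 0.43 for EDEM3.

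The direction of the smaller changes depended on the scaling of the libraries. With library totals alone in place of TMM, the median of all tested genes moved up by 0.15 on the log2 scale. Then 14 members were lower and 11 higher, so that 44% of the called members were higher instead of 25%, while among all called genes 64.7% were higher instead of 49.97%. With upper-quartile factors 15 were lower and 9 higher, so that 37.5% of the called members were higher, against 58.01% of all called genes. The members lost as lower with library totals were PDIA3, PDIA5, ERP29 and ERO1A, whose values are given with their groups. Those gained as higher were P4HB (log2 fold change 0.29), SEL1L (0.28), ERN1, EIF2AK3 and ATF6. When edgeR's glmTreat required a minimum fold, 12 members were lower and 0 higher. Of all 14900 tested genes, 2503 were then lower and 2686 higher. In all 14 alternatives that kept the test of any change at the same threshold (scalings, filters, other tools, the block and libraries left out), 14 members remained lower (HSPA5, HSP90B1, SDF2L1, MANF, CRELD2, CALR, DNAJB11, DNAJC3, PDIA4, PDIA6, TXNDC11, HERPUD1, EDEM2 and DERL1) and 5 remained higher (HYOU1, ERO1B, CREB3L2, SYVN1 and EDEM3). How many of all tested genes kept their call in every alternative was not computed.

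**Figure D1:**
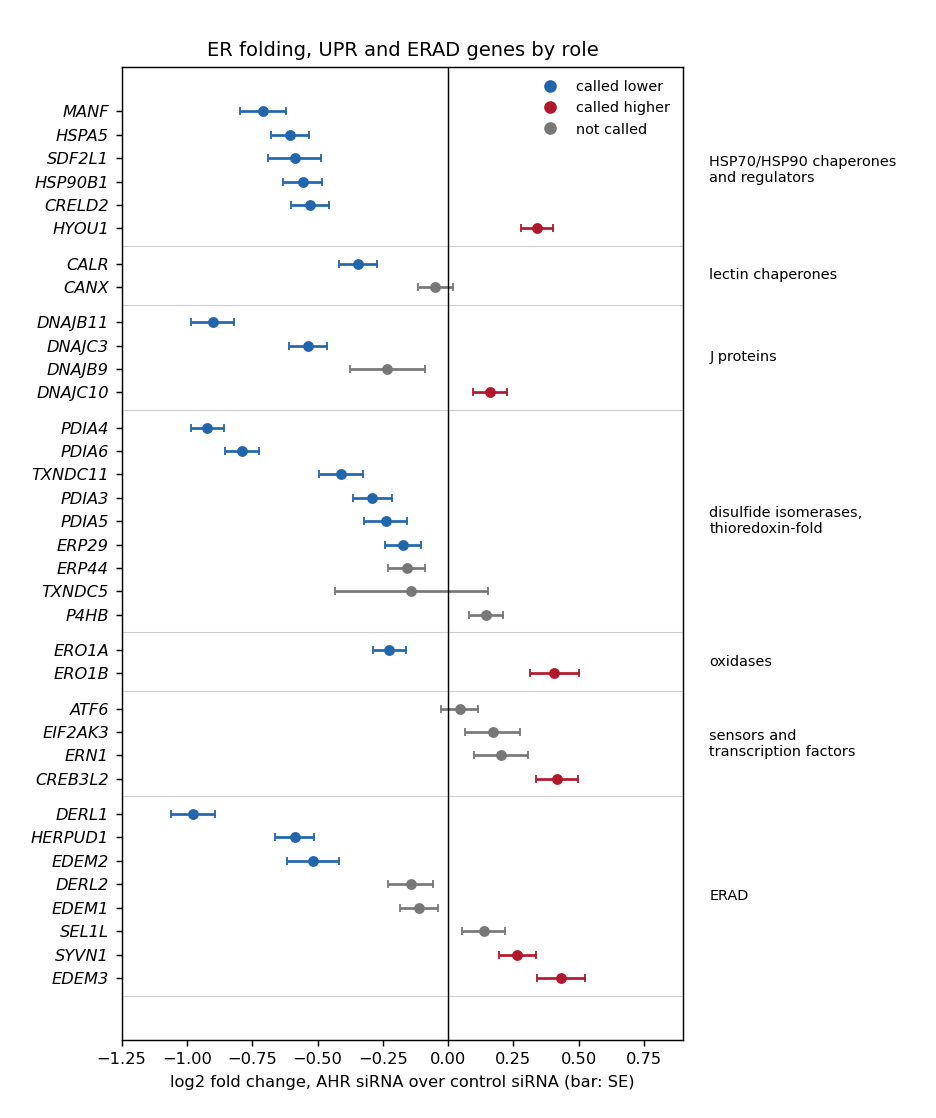
Log2 fold change of the 35 tested members, AHR siRNA over control siRNA (x axis), grouped by role (y axis), with bars of 1 SE from the edgeR fit and colours for the call at an adjusted p under 0.05. The lowest value is DERL1 at -0.98 and the highest is EDEM3 at 0.43.

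**Figure D2:**
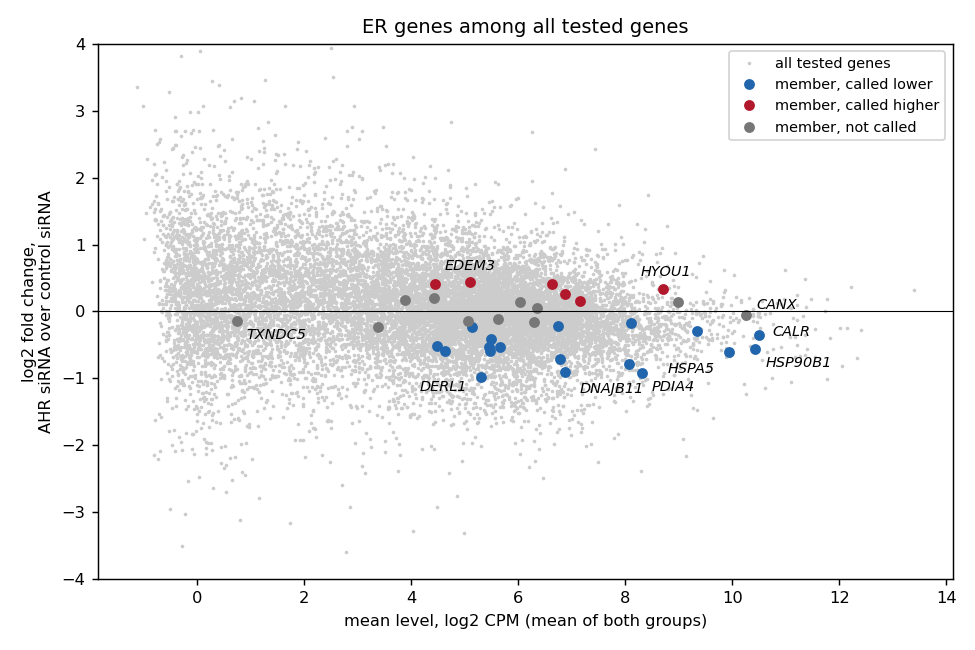
Log2 fold change against mean level (log2 CPM over both groups) for all 14900 tested genes in grey and the 35 tested members in colour. 16 genes lie outside the axis limit of 4 in either direction. The abundant members HSPA5, HSP90B1 and CALR lie below 0, and HYOU1 lies above it.

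Chaperones of the HSP70 and HSP90 families and their helpers fell in 5 of 6 cases (83.3%, against 30.1% of all tested genes). HSPA5 (ENSG00000044574.7, chromosome 9), the BiP gene, had 829, 752 and 740 CPM with AHR siRNA, against 1250, 1149 and 1129 CPM with control siRNA. Every AHR siRNA library lay below every control library, and the mean was 774 ± 48.6 against 1176 ± 64.6 CPM (SD, n = 3 each), or 65.8% of control (log2 fold change -0.60, SE 0.07, edgeR adjusted p = 7.014e-07). HSP90B1, which encodes the ER HSP90 protein GRP94, was at 1112 ± 78.2 against 1637 ± 103 CPM (log2 fold change -0.56, edgeR adjusted p = 3.175e-06). MANF, a secreted cofactor that slows nucleotide exchange on BiP, had 94.9, 82.2 and 74.7 CPM with AHR siRNA, against 154, 126 and 131 CPM with control siRNA. MANF was thus at 61.2% of control without overlap (log2 fold change -0.71, SE 0.09, edgeR adjusted p = 1.259e-06), the largest fall of this group. SDF2L1, a partner of ER J proteins, fell by 0.59 on the log2 scale (19.8 ± 0.384 against 29.8 ± 3.96 CPM). CRELD2, an ER stress-induced protein with disulfide isomerase activity, fell by 0.53 (35.7 ± 0.836 against 51.5 ± 0.575 CPM).

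HYOU1 went the other way. It encodes GRP170, a large HSP70-related protein that serves BiP as a nucleotide exchange factor. Its level was 452, 469 and 472 CPM with AHR siRNA, against 360, 373 and 369 CPM with control siRNA. The groups were well separated, at 465 ± 10.7 against 367 ± 6.61 CPM (log2 fold change 0.34, SE 0.06, edgeR adjusted p = 1.198e-04). HYOU1 carries ERSE-II sites, as do SDF2L1 and HERPUD1, which fell.

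Of the lectin chaperones, calreticulin fell and calnexin did not pass the test. CALR, the soluble lectin, had 1342, 1267 and 1236 CPM with AHR siRNA, against 1752, 1559 and 1578 CPM with control siRNA. All AHR siRNA values were below the lowest control value (log2 fold change -0.35, SE 0.07, edgeR adjusted p = 3.916e-04). CANX, its membrane-bound relative, was at 1196 ± 42.0 against 1237 ± 27.1 CPM, with overlapping groups (log2 fold change -0.05, SE 0.07, edgeR adjusted p = 0.543), and its sign turned to 0.10 with library totals and 0.03 with upper-quartile factors. Per kilobase of exon, CALR had the highest level of the tested members in both groups, at 472 CPM per kb with AHR siRNA and 600 CPM per kb with control siRNA.

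The J proteins, which hand clients to BiP and stimulate its ATPase, were divided. DNAJB11 (ERdj3), the abundant soluble J protein, had 92.9, 78.3 and 74.2 CPM with AHR siRNA, against 164, 151 and 143 CPM with control siRNA. It was at 53.6% of control with no overlap (log2 fold change -0.90, SE 0.08, edgeR adjusted p = 1.973e-08). DNAJC3 (p58IPK), a J protein first described as an inhibitor of the kinase PKR, fell by 0.54 on the log2 scale (41.0 ± 1.86 against 59.4 ± 0.992 CPM). DNAJB9 (ERdj4), which represses IRE1 through BiP, stood at 9.55 ± 1.85 against 11.2 ± 1.21 CPM and did not pass the test (log2 fold change -0.23, edgeR adjusted p = 0.171). Without AHR siRNA replicate 1, DNAJB9 was called lower (log2 fold change -0.40, edgeR adjusted p = 0.0297).

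DNAJC10 (ERdj5), a J protein with thioredoxin domains that reduces disulfides of degradation substrates, had 153, 150 and 147 CPM with AHR siRNA, against 127, 139 and 137 CPM with control siRNA. The groups did not overlap and the call was narrow (log2 fold change 0.16, SE 0.07, edgeR adjusted p = 0.0410). It was lost when any 1 of the 6 libraries was left out, with log2 fold changes of 0.14 without AHR siRNA replicate 1, 0.16 without AHR siRNA replicate 2, 0.18 without AHR siRNA replicate 3, 0.11 without control siRNA replicate 1, 0.18 without control siRNA replicate 2 and 0.17 without control siRNA replicate 3. DESeq2's Wald test did not call it either (adjusted p = 0.0571).

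Among the 9 disulfide isomerases and thioredoxin-fold proteins, 6 fell (66.7%, against 30.1% of all tested genes) and none rose by the test. PDIA4 (ERp72) had 224, 218 and 217 CPM with AHR siRNA, against 430, 414 and 405 CPM with control siRNA. The libraries of each group lay close together and far from the other group, at 52.8% of control (log2 fold change -0.92, SE 0.06, edgeR adjusted p = 4.153e-10, the smallest p of the members). PDIA6 (P5), a BiP-associated isomerase that also acts on IRE1, had 208, 192 and 194 CPM with AHR siRNA, against 361, 331 and 335 CPM with control siRNA. It was at 57.8% of control without overlap (log2 fold change -0.79, SE 0.07, edgeR adjusted p = 6.263e-09). The exons of PDIA6 share 25.2% of their bases with ATP6V1C2 on the opposite strand, and those of DNAJB11 share 23.2% with other genes on either strand, so a part of their counts is uncertain where strand was not used.

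The remaining isomerases changed less. PDIA3 (ERp57), the partner of the lectin chaperones, was at 587 ± 38.4 against 718 ± 56.1 CPM (log2 fold change -0.29, edgeR adjusted p = 0.00229), which became -0.14 and lost its call with library totals (adjusted p = 0.0700). TXNDC11, a thioredoxin-domain partner of EDEM proteins, fell by 0.41 (38.4 ± 1.24 against 51.1 ± 5.34 CPM). PDIA5, a less studied isomerase linked to ATF6 activation, was at 32.1 ± 1.73 against 37.9 ± 2.05 CPM (log2 fold change -0.24, edgeR adjusted p = 0.0170). PDIA5 was not called without AHR siRNA replicate 2 (-0.23) or AHR siRNA replicate 3 (-0.21), nor with library totals (-0.09) or upper-quartile factors (-0.16). ERP29, a chaperone with a thioredoxin fold but no active-site cysteine pair, was at 259 ± 8.62 against 292 ± 23.3 CPM (log2 fold change -0.17, edgeR adjusted p = 0.0373). ERP29 was not called without AHR siRNA replicate 2 (-0.18), AHR siRNA replicate 3 (-0.15) or control siRNA replicate 1 (-0.12), nor with library totals (-0.02) or upper-quartile factors (-0.09).

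P4HB, the classical protein disulfide isomerase, did not follow PDIA4 and PDIA6, at 531 ± 11.1 against 481 ± 24.3 CPM (log2 fold change 0.14, edgeR adjusted p = 0.0657), although its groups did not overlap. Without control siRNA replicate 1 it was called higher (0.18, adjusted p = 0.0120, edgeR), as it was with library totals (0.29) and upper-quartile factors (0.22). ERP44, which retains ERO1 and immature proteins in the early secretory pathway, was at 74.0 ± 3.72 against 82.6 ± 4.85 CPM (log2 fold change -0.16, edgeR adjusted p = 0.0633), and was called lower without AHR siRNA replicate 1 (-0.20, adjusted p = 0.0375, edgeR). TXNDC5 had the lowest level of the tested members, with 22, 17 and 23 counts with AHR siRNA and 21, 20 and 30 counts with control siRNA (log2 fold change -0.14, SE 0.29). It shares 60.6% of its exon bases on the same strand with the readthrough gene BLOC1S5-TXNDC5, which is listed at 0 in all 6 libraries, so its level is uncertain.

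The ERO1 oxidases, which pass oxidising equivalents to disulfide isomerases, moved in opposite directions. ERO1B had 26.1, 22.6 and 26.0 CPM with AHR siRNA, against 18.3, 19.0 and 19.1 CPM with control siRNA. It was higher in every AHR siRNA library (log2 fold change 0.41, SE 0.09, edgeR adjusted p = 0.00101). ERO1A, the more widely expressed oxidase, was at 99.2 ± 2.19 against 116 ± 1.39 CPM without overlap (log2 fold change -0.23, edgeR adjusted p = 0.00507). The ERO1A call was lost with library totals (-0.08) and upper-quartile factors (-0.15).

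**Figure D3:**
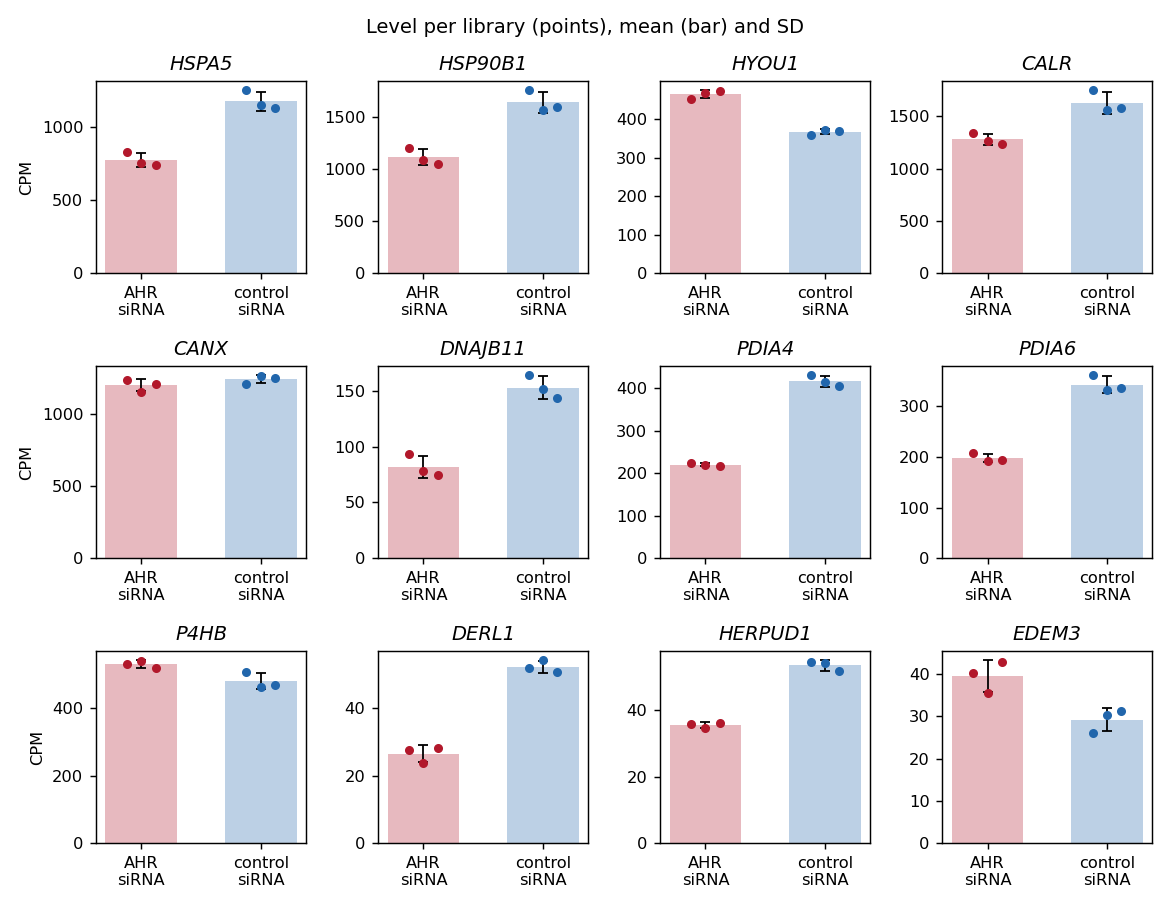
CPM in each library for 12 members (points), with the group mean (bar) and SD (error bar, n = 3), AHR siRNA on the left and control siRNA on the right of each panel, every y axis starting at 0. HSPA5 stands at 774 against 1176 CPM and PDIA4 at 220 against 416 CPM, while the CANX points overlap.

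None of the 3 stress sensors passed the test with TMM scaling and group as the only term, and all of them were called higher with library totals alone. ERN1, the IRE1 gene, had 22.5, 23.5 and 22.6 CPM with AHR siRNA, against 17.3, 22.6 and 19.5 CPM with control siRNA. The groups overlapped at 1 control library (log2 fold change 0.20, SE 0.10, edgeR adjusted p = 0.0952), and without it, control siRNA replicate 2, ERN1 was called higher (0.30, adjusted p = 0.0246, edgeR). It was also called higher with library totals (0.35) and upper-quartile factors (0.28). ATF6 had 89.1, 78.9 and 81.7 CPM with AHR siRNA, against 81.5, 82.5 and 77.9 CPM with control siRNA. Its groups overlapped (log2 fold change 0.04, SE 0.07, edgeR adjusted p = 0.606, and 0.19 with library totals). EIF2AK3, the PERK gene, had 14.6, 15.7 and 16.4 CPM with AHR siRNA, against 13.3, 13.7 and 14.7 CPM with control siRNA. Its groups also overlapped (log2 fold change 0.17, SE 0.11, edgeR adjusted p = 0.175, and 0.32 with library totals). These transcript levels do not measure the activity of the sensors, which is set by oligomerisation, phosphorylation or cleavage of the proteins.

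Of the transcription factors, CREB3L2, a membrane-bound relative of ATF6 that is cleaved in the Golgi, was higher. It had 104, 112 and 123 CPM with AHR siRNA, against 76.1, 88.3 and 90.7 CPM with control siRNA, with no overlap (log2 fold change 0.42, SE 0.08, edgeR adjusted p = 1.738e-04). XBP1 (ENSG00000100219.15), the target of IRE1 splicing, was listed at 0 in all 6 libraries. Its processed relative XBP1P1 had 15, 2 and 7 counts with AHR siRNA and 4, 4 and 6 counts with control siRNA. A 0 in a gene that secretory cells use widely can come from the counting, so XBP1 was not tested and its level is not read from these tables.

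In ERAD, 3 of 8 members fell (37.5%), 2 rose (25.0%) and 3 did not pass the test, shares not far from the 30.1% and 30.0% of all tested genes. DERL1, a rhomboid-like protein of the retrotranslocation channel, had 27.8, 23.8 and 28.1 CPM with AHR siRNA, against 51.8, 54.1 and 50.8 CPM with control siRNA. It was at 50.8% of control, the largest change of any member (log2 fold change -0.98, SE 0.08, edgeR adjusted p = 8.584e-09). DERL2, its close relative, was at 31.7 ± 0.501 against 35.0 ± 3.34 CPM (log2 fold change -0.14, edgeR adjusted p = 0.163), was called lower without control siRNA replicate 2 (-0.23, adjusted p = 0.0413, edgeR) and stood at 0.01 with library totals. HERPUD1, a short-lived membrane protein that gathers the ligase complex, fell by 0.59 on the log2 scale (35.6 ± 0.798 against 53.5 ± 1.52 CPM, edgeR adjusted p = 1.384e-06).

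The EDEM proteins trim or recognise mannose on misfolded glycoproteins, and their genes did not move together. EDEM3 had 40.2, 35.4 and 42.7 CPM with AHR siRNA, against 26.1, 30.2 and 31.3 CPM with control siRNA. It was the largest rise among the members (log2 fold change 0.43, SE 0.09, edgeR adjusted p = 5.158e-04). EDEM2, which starts the trimming, fell by 0.52 (18.4 ± 2.01 against 26.3 ± 1.56 CPM, edgeR adjusted p = 1.727e-04). EDEM1 was at 47.1 ± 1.92 against 50.8 ± 0.291 CPM (log2 fold change -0.11, edgeR adjusted p = 0.199, with a value of 0.04 under library totals). SYVN1, the HRD1 ubiquitin ligase, had 120, 138 and 126 CPM with AHR siRNA, against 101, 109 and 109 CPM with control siRNA, and rose without overlap (log2 fold change 0.26, SE 0.07, edgeR adjusted p = 0.00323). SEL1L, its adaptor, was at 68.1 ± 4.66 against 62.0 ± 6.49 CPM with overlapping groups (log2 fold change 0.14, edgeR adjusted p = 0.164).

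The summed level of the members was 8260, 7825 and 7750 CPM with AHR siRNA, against 10240, 9580 and 9568 CPM with control siRNA, or 81.1% of control. As a share of all counts of a library, the members made up 0.818% to 0.862% with AHR siRNA and 0.916% to 0.947% with control siRNA. The summed CPM and the shares of the difference given next rest on TMM scaling and were not computed with other scalings. HSP90B1 gave 28.4% of the difference and 16.7% of the summed control level, and HSPA5 gave 21.7% of the difference and 12.01% of the control level. PDIA4 gave 10.6% of the difference and 4.25% of the control level, and PDIA6 7.80% and 3.49%. CALR and PDIA3 gave about what their share of the counts would bring, with 18.8% of the difference and 16.6% of the control level for CALR, and 7.07% and 7.33% for PDIA3. The HSP70 and HSP90 group summed to 73.3% of control and the isomerases to 80.1%, against 95.0% for ERAD and 118% for the sensors and transcription factors. The ERAD sums of the groups met, at 389.5 to 404.3 CPM with AHR siRNA against 404.3 to 423 CPM with control siRNA. Of the sensor and transcription factor group, CREB3L2 alone added 28.4 CPM, against 3.03 for ERN1, 2.58 for ATF6 and 1.71 for EIF2AK3, none of which was called. For single members, the median coefficient of variation between libraries was 5.03% with AHR siRNA and 5.49% with control siRNA.

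Ratios of counts between members within a library do not depend on the scaling. They are given for 11 pairs that were chosen after their values were seen, as a description without a test. HYOU1 over HSPA5, exchange factor over chaperone, was 0.546, 0.625 and 0.638 with AHR siRNA, against 0.288, 0.324 and 0.327 with control siRNA. HSP90B1 over HSPA5 was nearly level, at 1.44 ± 0.0148 against 1.39 ± 0.0262. PDIA4 over P4HB was 0.414 ± 0.00948 against 0.867 ± 0.0229, and PDIA6 over P4HB was 0.373 ± 0.0178 against 0.712 ± 0.00317. Among close relatives, DERL1 over DERL2 was 0.838 ± 0.0694 against 1.51 ± 0.202, EDEM2 over EDEM3 was 0.468 ± 0.0468 against 0.910 ± 0.141, and ERO1B over ERO1A was 0.251 ± 0.0144 against 0.162 ± 0.00177. HERPUD1 over SYVN1, both of the same ligase complex, was 0.280 ± 0.0245 against 0.503 ± 0.0325.

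**Figure D4:**
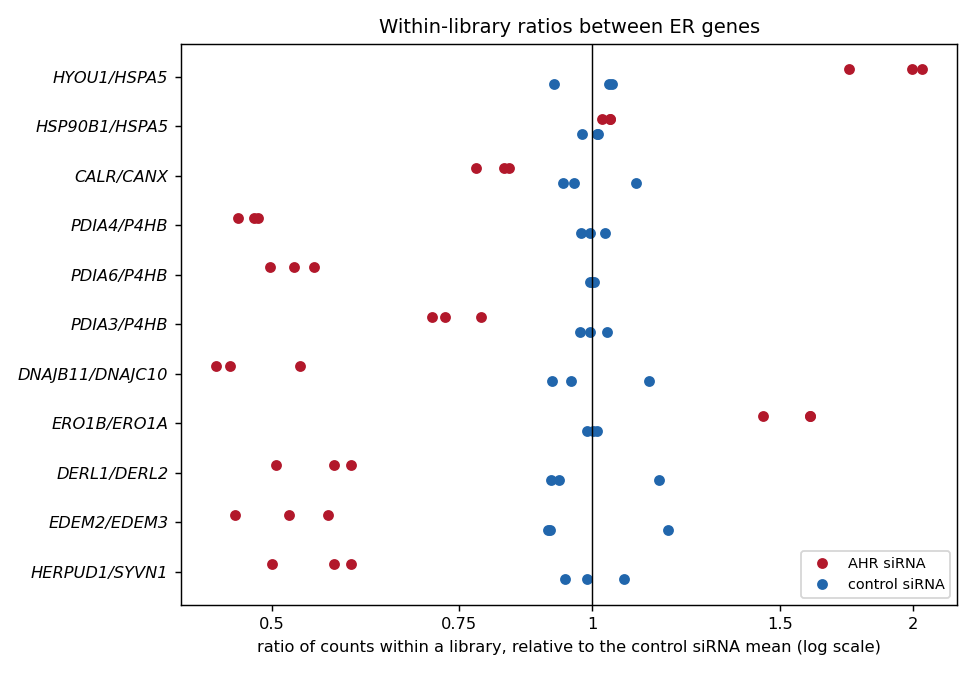
Ratio of counts between 2 members within each library, divided by the control siRNA mean of that ratio (x axis, log scale), for 11 pairs (y axis) with AHR siRNA points above control siRNA points. By the mean of the AHR siRNA points, PDIA4 over P4HB and DNAJB11 over DNAJC10 lie farthest to the left, and HYOU1 over HSPA5 farthest to the right.

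Promoter elements were set beside the fold changes as a description. For scale, 51.4% of the tested members fell and 17.1% rose, against 30.1% and 30.0% of all tested genes. Of the 11 members with ERSE or ERSE-II, 10 were tested, of which 7 fell, 2 rose (HYOU1 and ERO1B) and CANX did not pass, with a median log2 fold change of -0.54. Of the 23 other members with a promoter, 9 fell, 4 rose and 10 did not pass, with a median of -0.14. Outside the members, 19 tested genes carried either element, of which 9 fell and 5 rose, with a median of -0.20. PDIA4, which fell more than all members with ERSE or ERSE-II, had no exact match to ERSE, ERSE-II or the UPRE core in its window. The members with no promoter available, among them DERL1, the largest fall of the members, all fell and are in none of these comparisons. The UPRE core was found in TXNDC11, which fell, TXNDC5, which did not pass, and DNAJC10 and HYOU1, which rose.

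The core of the AHR response element, GCGTG, was found in 23 members (67.6%), against 40.6% of all genes with a promoter. These 27305 genes include many that were not tested here, and the share among tested genes was not computed. It can overlap an ERSE, whose CCACG reads CGTGG on the opposite strand, and in CALR, HSP90B1 and SDF2L1 every match to the core shared bases with an ERSE or ERSE-II match. Among members with the core, 22 were tested, of which 11 fell and 4 rose (median log2 fold change -0.16). Among the 11 members with a promoter and no core, 5 fell and 2 rose (median -0.23). Over all tested members 51.4% fell and 17.1% rose, against 30.1% and 30.0% of all tested genes.

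**Figure D5:**
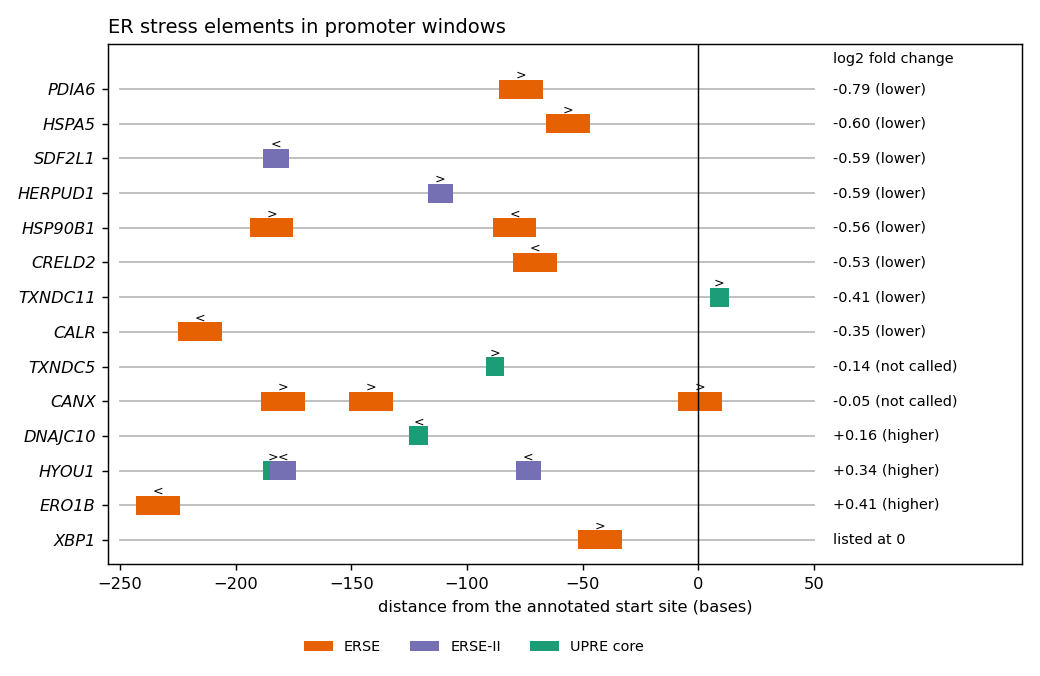
Matches to ERSE, ERSE-II and the UPRE core (coloured boxes) in promoter windows of 14 members, by distance from the annotated start site in bases (x axis), with the log2 fold change and call of each gene at the right. Arrowheads give the strand of the match, and the 3 CANX boxes are 1 site seen from different start sites. Genes with a match include members that fell, such as PDIA6 at -0.79, and members that rose, such as ERO1B at 0.41.

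Genes of the same pathway outside the 36 were read from 6 lists of 96 genes, of which 94 were tested. Of these, 42 fell, 29 rose and 23 did not pass the test, with a median log2 fold change of -0.11. The share that fell was 44.7%, against 30.1% of all tested genes, and the share that rose was 30.9%, near the 30.0% of all tested genes. With library totals 25 of them were lower and 35 higher, against 3205 lower and 5885 higher of all 14900 tested genes. When a minimum fold was required 12 were lower and 14 higher, against 2503 lower and 2686 higher of all tested genes. Of 17 genes for translocation into the ER and signal peptide removal, 12 fell (70.6%) and 2 rose (11.8%), with a median of -0.34. SSR1, a subunit of the translocon-associated protein complex, was at 144 ± 7.38 against 211 ± 1.42 CPM (log2 fold change -0.55). SEC63, a J protein of the translocon, was at 138 ± 2.41 against 185 ± 4.01 CPM (log2 fold change -0.42). TRAM1, which helps some chains into the membrane, was at 125 ± 4.92 against 170 ± 8.48 CPM (log2 fold change -0.44).

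Glycan trimming and the calnexin cycle had 3 of 9 genes lower and 3 higher (33.3% each), near the 30.1% and 30.0% of all tested genes. GANAB, the catalytic subunit of glucosidase II, which trims glucose so that glycoproteins bind and leave the lectins, was at 621 ± 13.7 against 255 ± 5.48 CPM (log2 fold change 1.28, SE 0.06). MLEC, a lectin that binds glucosylated glycans, was at 142 ± 4.91 against 313 ± 2.44 CPM (log2 fold change -1.14). MCFD2, which exports glycoprotein cargo together with LMAN1, was at 136 ± 3.69 against 381 ± 1.40 CPM (log2 fold change -1.49). The edgeR adjusted p of these 3 genes was 7.139e-12 for GANAB, 2.805e-11 for MLEC and 9.407e-13 for MCFD2.

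Of 22 other ERAD genes, 10 (45.5%) fell and 7 (31.8%) rose, the second share being near the 30.0% of all tested genes. FAF2, which recruits the VCP ATPase to the ER, was at 68.7 ± 1.95 against 149 ± 4.65 CPM (log2 fold change -1.11). The ubiquitin ligases RNF5 (47.0 ± 3.22 against 31.1 ± 2.10 CPM, log2 fold change 0.59) and TMEM129 (85.6 ± 7.35 against 60.0 ± 1.87 CPM, log2 fold change 0.51) were higher. Among 23 other folding enzymes, 7 fell (30.4%, near the 30.1% of all tested genes) and 11 rose (47.8%, against 30.0%). The membrane thioredoxin proteins TMX4 (110 ± 9.60 against 60.2 ± 2.34 CPM) and TMX3 (63.7 ± 2.25 against 40.2 ± 1.67 CPM) rose by 0.87 and 0.66 on the log2 scale. SERPINH1, the collagen chaperone HSP47, rose by 0.57 (148 ± 2.40 against 99.3 ± 6.26 CPM).

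Of 12 genes of the PERK arm and its ATF4 output, 5 fell (41.7%), 1 rose (8.33%) and 6 did not pass. Among all tested genes 30.1% fell and 30.0% rose. EIF2S1, the substrate of PERK, was at 159 ± 5.17 against 245 ± 17.6 CPM (log2 fold change -0.62). PPP1R15B, a subunit of the phosphatase that reverses that phosphorylation, was at 108 ± 2.12 against 151 ± 5.07 CPM (log2 fold change -0.48). ATF5, a transcription factor of this arm, rose by 0.56 (42.6 ± 1.94 against 28.9 ± 2.47 CPM). DDIT3, the CHOP gene, named here for its role as a stress marker after its value was seen, was at 7.12 ± 1.10 against 7.38 ± 0.764 CPM (log2 fold change -0.05, edgeR adjusted p = 0.783).

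Of 13 other sensor and processing genes, 11 were tested, of which 5 fell and 5 rose (45.5% each). Among all tested genes the shares were 30.1% and 30.0%. MBTPS2, the site-2 protease that releases ATF6 and CREB3L2 from the membrane, was at 11.6 ± 2.14 against 29.9 ± 1.96 CPM (log2 fold change -1.36, SE 0.12, edgeR adjusted p = 8.672e-09). ERN2, the IRE1 paralog of intestinal and airway epithelium, rose by 0.69 (57.6 ± 1.43 against 35.7 ± 1.86 CPM). CREB3L4, another membrane-bound factor of the CREB3 family, rose by 0.98 (10.97 ± 0.850 against 5.55 ± 0.527 CPM).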

How the data were processed

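RNA was extracted with Trizol and libraries followed Illumina protocols, per the labels' protocols. The authors deposited whole-number counts per versioned Ensembl gene ID for each library. The submitters' processing notes list HTSeq, TopHat and TopHat2 2.0.11 as tools. The notes name builds hg19 and GRCh37, while the IDs fit a later annotation, so no coordinates were taken from the tables. The sources used here give neither strandedness nor the treatment of reads with several matches. Of 60483 genes, 30025 had no count, and the 37 mitochondrial genes were at 0.

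The deposited counts went unchanged into edgeR 4.0.16 under R 4.3.3 (filterByExpr, 14900 genes; TMM; glmQLFit and glmQLFTest with group as the only term; Benjamini-Hochberg over all genes). The procedure was tested on simulated data. CPM is relative to the TMM-scaled counts on tested genes. SE is the size of the log2 fold change divided by the square root of F. Exon lengths and overlaps come from GENCODE 29, which may not be the annotation counted.

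The members, lists and tests were chosen with earlier results of these data known. The rule for values in each library took AHR, HSPA5 and the sensors, the 6 largest falls, all 6 rises and the smallest p of each role. From each other list the 3 called genes with the smallest p were named, with group means and SD. The cell type was checked by markers, of which some values are not reported here. Counts of calls were computed again with other scalings (DESeq2 size factors, upper-quartile factors, library totals), filters (none, or 1 CPM in 3 libraries) and a replicate block. The DESeq2 1.42.0 Wald test, limma-voom (limma 3.58.1), an adjusted p of 0.01 and a minimum fold of 1.25 (glmTreat) were also used. Each library was also left out in turn. Apart from the adjusted p of 0.01 and glmTreat, the same settings were applied to the member median. They were also applied to the log2 fold changes of AHR, the members and most other named genes. Summed levels, role shares and promoter splits were computed with the main settings only. Replicate numbers were checked for pairing: deviations of same-numbered libraries correlated at 0.193, -0.0405 and 0.154, and no label ties them, so they were not treated as pairs. Protein sequences were not used here.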

Additional observations from a re-analysis of the deposited data

How the results depend on the processing

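Scaling by library totals gave 11 members higher, 25 other pathway genes lower and a member median of -0.078. Of all tested genes 3205 were then lower and 5885 higher. Upper-quartile factors gave a member median of -0.15. Testing against a minimum fold (glmTreat) left 0 members higher, against 6 with edgeR's main test, 12 other pathway genes lower and 14 higher, and 2503 genes lower and 2686 higher of all tested. Values that changed sign, none called in the main test, were CANX (0.098 with library totals, 0.029 with upper-quartile factors), TXNDC5 (0.0056 with library totals, and, without 1 library, -0.30 to 0.090, turning to 0.0074 without AHR siRNA replicate 2 and 0.090 without control siRNA replicate 3), ATF6 (-0.0076 to 0.082 without 1 library, the lowest without AHR siRNA replicate 1), EDEM1 (0.038 with library totals) and DERL2 (0.0058 with library totals). Leaving out 1 library gave 16 to 20 members lower, 5 to 6 higher and a member median of -0.29 to -0.18. With the replicate number as a block, 19 members were lower and 8 higher, and 4810 genes were lower and 4788 higher of all tested, but the numbers share no stated source. The members gained were ERN1 (log2 fold change 0.21) and P4HB (0.15) as higher and ERP44 as lower. Depth limits TXNDC5, which had 17 to 30 counts in a library. The share of members with 3′ untranslated region words that an earlier scan of these fold changes picked (GACTTAA or CACAACA) was 14.3%, against 15.4% of all tested genes with such a region. Of the 5 members with a word, 4 fell and 0 rose, and of 1906 tested genes with one, 902 fell and 447 rose. Because the words were picked from these same fold changes, a link between words and direction was not tested.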
